A study of Rattus norvegicus with 4 samples.

Results

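The p53 target genes and the regulators of apoptosis were followed in rat embryoid bodies, the aggregates that embryonic stem cells form as they begin to differentiate. The list held 43 genes: 23 p53 targets, 10 members of the BCL2 family and 10 caspases with their adaptors and inhibitors. Members were taken by exact gene symbol, and 40 of the 43 were found among the 32753 genes of the tables, each in a single entry: 22 p53 targets, 8 BCL2 family members and all 10 of the caspase group. The symbols Bbc3, Hrk and Mcl1 matched no entry and were not analysed here.

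The study compared wild-type (WT) cells with Kcnh2-/- cells at differentiation day 4, with 2 libraries per group. Both groups derive from rat embryonic stem cells of the strain labelled DASD and differ by the label in genotype alone. Kcnh2 encodes the voltage-gated potassium channel ERG1. All 4 cultures were aggregated in hanging drops in a medium called CM with CHIR9902 (a GSK3 inhibitor), PD0325901 (a MEK inhibitor) and Y27632 (a ROCK inhibitor), then held on laminin with CHIR9902 and PD0325901, and moved to a medium called DM for the last day. Ribosomal RNA was removed from total RNA before strand-marking libraries were made. The labels do not say how the allele was made, how many cell clones were used, or whether the replicates came from separate cultures, so p-values measure only the spread between these samples.

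p53 is a transcription factor held at a low level by the ubiquitin ligase MDM2, which is itself a p53 target, so that the pair forms a feedback loop. Its targets stop the cell cycle, limit growth, aid repair or start apoptosis, and pluripotent cells are known to be primed for p53-dependent death. In the mitochondrial route, BH3-only proteins and the guardian proteins BCL2, BCL-XL and MCL1 set whether BAX and BAK open the outer membrane. Cytochrome c then joins APAF1 and caspase-9, while inhibitor of apoptosis proteins (IAPs) hold caspases back until DIABLO displaces them.

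p53 binds DNA through pairs of a 10-base half-site, and 6 p53 target promoters that hold a match to the half-site consensus are shown to place the members next to the sequence that defines the pathway. The window ran from 250 bases before to 50 bases after each RefSeq gene start (build GRCr8), and the consensus reads the same on both strands. Each line gives 30 bases, 5′ to 3′ on the strand of the gene, with the matching half-site in capitals.

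Cdkn1a, chr20:7150721-7150750, plus strand: tggctttcagGAACATGTCTtgacttgttc

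Aen, chr1:142224493-142224522, plus strand: agccgaagccGGGCATGTCCgggcaagcaa

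Gtse1, chr7:118830142-118830171, plus strand: gagcaagctgGGGCTTGTCCctgacatgcc

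Sesn1, chr20:46948537-46948566, plus strand: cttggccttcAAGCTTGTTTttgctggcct

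Ccng1, chr10:25685089-25685118, minus strand: agacctgcccGGGCAAGCCTtggcattgaa

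Ei24, chr8:44699431-44699460, minus strand: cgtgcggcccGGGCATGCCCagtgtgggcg

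The half-sites began 201 bases before the start in Cdkn1a, 30 in Aen, 21 in Gtse1, 172 in Sesn1, 232 in Ccng1 and 79 in Ei24. A match was present in 6 of the 18 p53 targets with a promoter in the RefSeq table, in none of 9 BCL2 family members and in none of 7 genes of the caspase group. Over all 27457 genes with such a promoter the share was 8.57%, and among 17 other p53 target genes it was 11.8%. A match is a description of the letters in this window and not a measured binding site, and targets without one may hold sites elsewhere.

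The unit is RPKM, which divides reads by gene length and by library size, so that levels can be set beside each other across genes. Absolute read depth is unknown, and so is how the library size was counted. Between 17610 and 17833 genes were above 0 in each library, and total RPKM was 7.95e+07 (WT) and 1.09e+08 (Kcnh2-/-) for replicate 1 but 1.17e+07 and 8.93e+06 for replicate 2, with genes matched as protein-coding at 0.538% to 9.69% of the sum. Whether this uneven makeup shifted the scaling between libraries could not be settled from RPKM, and comparisons between libraries carry that limit. Because library totals followed the replicate number in both genotypes, differences within each number are given beside the pooled ones. As a check of the labels, the targeted gene Kcnh2 was read first: 2.61 and 1.45 RPKM in WT, 0.108 and 0.504 in Kcnh2-/- (log2 difference -1.20 ± 0.43, SE, limma adjusted p = 0.980). Of 5 general pluripotency markers, all were present in every library, and they had no common direction (2 positive and 3 negative differences, median -0.49). Pou5f1 was at 273 and 1203 RPKM in WT, against 1043 and 1679 in Kcnh2-/-, while Lin28a was at 196 and 220 against 168 and 100.6.

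Most p53 targets among the members had higher mean levels in Kcnh2-/- than in WT. A second list of p53 target genes went mostly the other way, with 11 of 15 tested genes lower. Bcl2l1 and Bcl2, the guardian members of the BCL2 family that were found, had lower mean levels in Kcnh2-/-. The caspase group, with the IAPs, showed no common direction. None of the 39 members tested passed the threshold. The test was limma on log2(RPKM + 1). It covered 12355 genes, those reaching 1 RPKM in 2 or more libraries, and it called 14 genes in all (0.113%), 4 higher (0.0324%) and 10 lower (0.0809%) in Kcnh2-/-. At an unadjusted limma p under 0.05 there were 2 members, Bcl2l1 and Mdm2, against 3.38% of all genes tested. Casp8 was the only member found that was left out by the filter. Throughout, a difference is Kcnh2-/- minus WT on the log2(RPKM + 1) scale, and the order of values is replicate 1 then replicate 2.

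Of the 22 p53 targets, 19 had a positive difference and 3 a negative one, with a median of 0.42 against 0.0052 over all genes tested. The median was 0.28 within replicate 1 and 0.61 within replicate 2. There were 8 members higher in both Kcnh2-/- libraries than in either WT library: Mdm2, Ccng1, Gtse1, Sesn1, Bax, Phlda3, Aen and Eda2r. No p53 target was lower in that sense. Over all genes tested, 16.7% were higher with groups that did not overlap and 15.3% were lower.

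The feedback gene Mdm2 (rn6 chromosome 7, 60719065 to 60743328) was at 90.2 and 100.4 RPKM in WT, against 140.1 and 219 in Kcnh2-/-. Both Kcnh2-/- libraries lay above both WT libraries, and the ratio of means was 1.88. The difference was 0.87 ± 0.32 (SE, limma adjusted p = 0.980), with 0.63 and 1.11 within replicates 1 and 2. It was 0.55 without Kcnh2-/- replicate 2.

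Among the targets that act on the cell cycle and growth, Cdkn1a (chromosome 20, 6351457 to 6358864), which encodes the CDK inhibitor p21, was at 37.5 and 86.4 RPKM in WT, against 49.9 and 145.5 in Kcnh2-/-. The groups overlapped, because both replicate 2 libraries stood above both replicate 1 libraries, while Kcnh2-/- was above WT within each number. The difference was 0.57 ± 0.68 (SE, limma adjusted p = 0.980), and it turned to -0.0175 without WT replicate 1 and to -0.19 without Kcnh2-/- replicate 2. Ccng1, a cyclin G that recruits a phosphatase to MDM2, was at 154.8 and 84.2 against 163.9 and 183 RPKM. Its groups did not overlap, but the gap lay almost wholly in replicate 2 (0.08 and 1.11 within replicates). Gtse1, a microtubule-binding protein that restrains p53 in G2, was nearly level at 42.4 and 47.1 against 47.9 and 49.1 RPKM.

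Gdf15 (chromosome 16, 20555394 to 20557978), which encodes a secreted stress cytokine, was at 1.49 and 9.36 RPKM in WT, against 8.90 and 19.8 in Kcnh2-/-. The lower Kcnh2-/- library fell just under the higher WT library, so the groups overlapped by a small margin. Its difference of 1.501 ± 0.82 (SE, limma adjusted p = 0.980) was 0.47 without WT replicate 1 and 2.53 without WT replicate 2, and 0.96 without Kcnh2-/- replicate 2. Zmat3, an RNA-binding growth regulator, was at 10.03 and 15.998 against 14.3 and 21.8 RPKM. Plk3, a stress-responsive polo-like kinase, was low at 1.98 and 6.69 against 4.31 and 5.83.

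The antiproliferative gene Btg2 and the polo-like kinase gene Plk2 did not share a direction between replicates. Btg2 was at 67.1 and 19.7 RPKM in WT, against 45.9 and 25.2 in Kcnh2-/-, and Plk2 at 57.2 and 21.0 against 41.5 and 40.9. In both genes WT replicate 1 was the highest library and WT replicate 2 the lowest.

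Of the sestrins, which restrain the growth kinase mTORC1, Sesn1 was at 5.64 and 6.98 RPKM in WT, against 7.68 and 14.8 in Kcnh2-/-, with no overlap (0.69 ± 0.41, SE, limma adjusted p = 0.980). Its difference was 0.25 without Kcnh2-/- replicate 2 and 1.12 without Kcnh2-/- replicate 1. Sesn2 was at 15.6 and 25.4 against 24.2 and 27.1. Tp53inp1, a promoter of autophagy and p53 activity, was at 32.5 and 55.3 against 51.6 and 67.7. The last 2 were higher in Kcnh2-/- within each replicate number, and their groups overlapped.

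Bax (chromosome 1, 101451801 to 101457207), the pore former of the outer mitochondrial membrane, was the p53 target with the highest mean level. It was at 145.4 and 135 RPKM in WT, against 188 and 207 in Kcnh2-/-. The groups did not overlap and each was narrow, with a ratio of means of 1.41 and a difference of 0.49 ± 0.25 (SE, limma adjusted p = 0.980), which was 0.22 under quantile normalization. Pmaip1, which encodes the BH3-only protein NOXA, did not follow Bax: it was at 102.5 and 72.01 against 78.2 and 80.2 RPKM, and WT held both the highest and the lowest value.

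The other death effectors and receptors all had positive differences, from 0.15 to 1.73. Aen, an apoptosis-enhancing nuclease, was at 65.6 and 88.8 RPKM in WT, against 112.9 and 133 in Kcnh2-/- (0.67 ± 0.28, SE, limma adjusted p = 0.980), with 0.77 and 0.58 within replicates. Phlda3, an AKT repressor, was at 64.0 and 52.9 against 73.0 and 80.7, again with no overlap. Ei24, an endoplasmic reticulum protein of autophagy, was nearly level at 47.6 and 42.4 against 46.8 and 53.3.

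Perp, a membrane protein of desmosomes and apoptosis, was at 34.1 and 19.8 RPKM in WT, against 26.3 and 43.1 in Kcnh2-/-. The death receptor gene Fas was low, at 2.75 and 1.22 against 2.17 and 4.08. Both genes were lower in Kcnh2-/- within replicate 1 and higher within replicate 2.

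Eda2r (X, 66561285 to 66602506), a receptor for ectodysplasin A2, had the largest difference of the members. It was at 15.3 and 23.1 RPKM in WT, against 32.3 and 128 in Kcnh2-/- (1.73 ± 0.71, SE, limma adjusted p = 0.980). Kcnh2-/- replicate 2 stood far above the other 3 libraries, and without it the difference was 0.75; without Kcnh2-/- replicate 1 it was 2.705. Genes near Eda2r moved in the same way, as given with the chromosomal neighbours, and their part in its difference was not tested.

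The targets of nucleotide supply and repair were low. Rrm2b, a ribonucleotide reductase subunit, was at 8.06 and 4.30 against 5.45 and 7.71 RPKM, and the translesion polymerase gene Polk at 1.59 and 0.910 against 1.08 and 0.591. Polk was the only p53 target with a lower value in Kcnh2-/- within both replicate numbers.

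**Figure D1:**
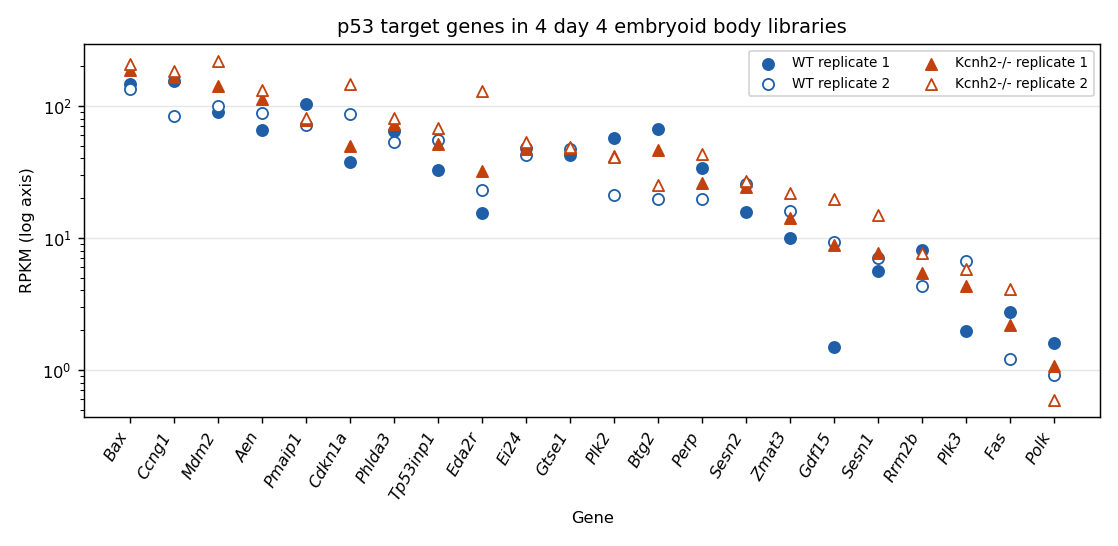
RPKM (log axis) of the 22 p53 targets found, ordered by mean level, in each of the 4 libraries; circles are WT and triangles Kcnh2-/-, filled for replicate 1 and open for replicate 2. For Mdm2, Bax, Aen and Eda2r both triangles lie above both circles, whereas for Cdkn1a both open symbols lie above both filled ones.

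In a second list of 20 p53 target genes, 15 were tested and none passed (limma), with 1 at an unadjusted p under 0.05. Of these 15, 4 had a positive and 11 a negative difference, with a median of -0.24 over all libraries, -0.23 within replicate 1 and -0.17 within replicate 2. Rps27l, a ribosomal protein S27 paralog induced by p53, was at 525 and 371 RPKM in WT, against 747 and 930 in Kcnh2-/- (limma adjusted p = 0.980). Reads of this gene may be shared with its near-identical copy Rps27, so its value is uncertain. Btg1, an antiproliferative paralog of Btg2, was at 37.5 and 41.1 against 22.5 and 25.6 (limma adjusted p = 0.980), and Gadd45a, a growth arrest gene, at 58.5 and 31.2 against 31.8 and 27.3. The difference between both lists was not tested.

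Of 15 regulators of p53, 12 were tested and none passed (limma; 0 at an unadjusted p under 0.05), 6 with a positive and 6 with a negative difference and a median of 0.0118. The DNA damage kinase gene Atr was at 18.1 and 17.7 RPKM in WT, against 22.9 and 27.5 in Kcnh2-/-, and Tp53bp1, a double-strand break adaptor on chromosome 3, at 18.3 and 19.1 against 13.3 and 8.33. Chek1, a checkpoint kinase and the regulator with the highest mean, was at 132 and 147 against 144 and 185.

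**Figure D2:**
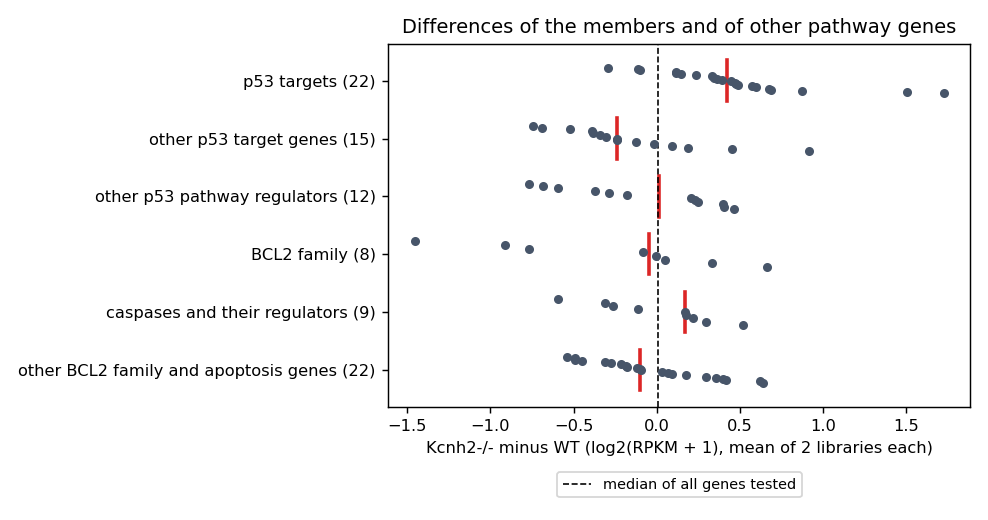
Difference between Kcnh2-/- and WT (log2(RPKM + 1), means of 2 libraries each) for each tested gene of 6 lists, with the number tested in brackets; red bars are list medians and the dashed line is the median of all genes tested. The p53 targets lie mostly right of the line (median 0.42), the second list of p53 targets mostly left of it (median -0.24), and the other lists on both sides.

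In the BCL2 family, both guardian genes found among the members stood lower in Kcnh2-/-. Bcl2l1 (chromosome 3, 148259595 to 148313810), which encodes BCL-XL, was at 20.9 and 28.3 RPKM in WT, against 11.4 and 13.6 in Kcnh2-/-. Both WT libraries lay above both Kcnh2-/- libraries, at a ratio of means of 0.509. The difference was -0.91 ± 0.29 (SE, limma adjusted p = 0.980), the smallest p of the members before adjustment, with -0.82 and -1.003 within replicates. The locus given for Bcl2l1 is shared with the contig-named gene AABR07054332.1, which was at 334 and 347 RPKM in WT, against 358 and 408 in Kcnh2-/-, and the division of reads between both is not shown in the files. Bcl2 was scarce, at 2.44 and 1.13 against 0.954 and 0.295, also without overlap (-0.77 ± 0.47, SE, limma adjusted p = 0.980). At this low level its difference was -0.47 without Kcnh2-/- replicate 2 and -1.45 with a pseudocount of 0.1.

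The pore former Bak1 did not follow Bax. It was at 6.87 and 14.7 RPKM in WT, against 8.32 and 13.2 in Kcnh2-/-, with both replicate 2 libraries above both replicate 1 libraries. Relative to Bcl2l1, the level of Bax was 6.95 and 4.78 in WT and 16.4 and 15.3 in Kcnh2-/-, and that of Bik was 0.509 and 0.627 against 1.70 and 1.90. These ratios combine genes picked after their values were seen and carry no test.

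The 5 BH3-only genes found in the BCL2 family list moved in different ways. Bax and the BH3-only gene Pmaip1 also belong to this family but were listed with the p53 targets. The family counts and medians given here leave both out. Bik was at 10.7 and 17.7 RPKM in WT, against 19.4 and 25.8 in Kcnh2-/-, with no overlap (0.66 ± 0.36, SE, limma adjusted p = 0.980). Its difference was 0.32 without WT replicate 1 and 1.01 without WT replicate 2. Bid, which links death receptors to mitochondria, was at 13.4 and 28.7 against 18.3 and 34.1, and Bcl2l11, which encodes BIM, at 14.3 and 36.5 against 20.4 and 25.6. In both, each replicate 2 library was above each replicate 1 library. Bad, a BH3-only protein controlled by growth factor signalling, was at 24.0 and 10.07 against 13.4 and 16.01, with opposite signs within replicates (-0.79 and 0.62).

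Bmf, a BH3-only protein tied to the cytoskeleton, had the widest range of the family: 27.9 and 4.12 RPKM in WT, against 8.05 and 1.18 in Kcnh2-/-. It was lower in Kcnh2-/- within each number (-1.68 and -1.23) and lower in replicate 2 within each genotype (-2.50 in WT and -2.05 in Kcnh2-/-). Across the 8 members the median difference was -0.0463, and leaving out Kcnh2-/- replicate 1 gave 0.0917. Leaving out WT replicate 2 gave 0.55, but over 7 members, because Bcl2 then fell below the filter. That value is therefore not the median of the same genes. In Kcnh2-/-, 1 of the 8 was higher and 2 were lower in both libraries than in either WT library, beside 16.7% and 15.3% of all genes tested.

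The caspase group differed little in its median, 0.17 over 9 tested members, 0.0019 within replicate 1 and 0.15 within replicate 2, and the pooled value was -0.0414 under quantile normalization. The initiator Casp9 (chromosome 5, 160355832 to 160373778) was at 12.7 and 7.36 RPKM in WT, against 8.58 and 9.21 in Kcnh2-/- (-0.11 ± 0.36, SE, limma adjusted p = 0.984). Both Kcnh2-/- values lay between the WT values, and the difference was 0.24 without WT replicate 1. The executioner Casp6 was at 1.94 and 2.48 against 2.38 and 1.11. Casp8, the initiator of the death receptor route, was at 2.74 and 0.378 against 0.823 and 0.203 and stayed out of the fit.

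Cycs, which encodes cytochrome c, had the highest mean level of all members, 233 RPKM, at 281 and 166 in WT and 235 and 251 in Kcnh2-/-. Its partner Apaf1 was at 13.6 and 9.41 against 9.43 and 8.50, lower in Kcnh2-/- within each number. The death receptor adaptor Fadd was at 4.46 and 6.55 against 6.37 and 7.40, with groups that overlapped slightly.

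Among the IAPs and their antagonist, Diablo was at 41.1 and 51.9 RPKM in WT, against 57.00 and 77.6 in Kcnh2-/-, with no overlap (0.52 ± 0.29, SE, limma adjusted p = 0.980). The step was 0.46 and 0.57 within replicates, and the pooled difference was 0.30 without Kcnh2-/- replicate 2. Birc2, which encodes cIAP1, was at 10.2 and 10.09 against 10.2 and 14.0, level within replicate 1. Its neighbour Birc3, which encodes cIAP2, was at 3.40 and 1.45 against 1.14 and 1.21. The X-linked Xiap was at 12.4 and 10.1 against 17.2 and 9.41, so the Kcnh2-/- libraries held both its highest and its lowest value.

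**Figure D3:**
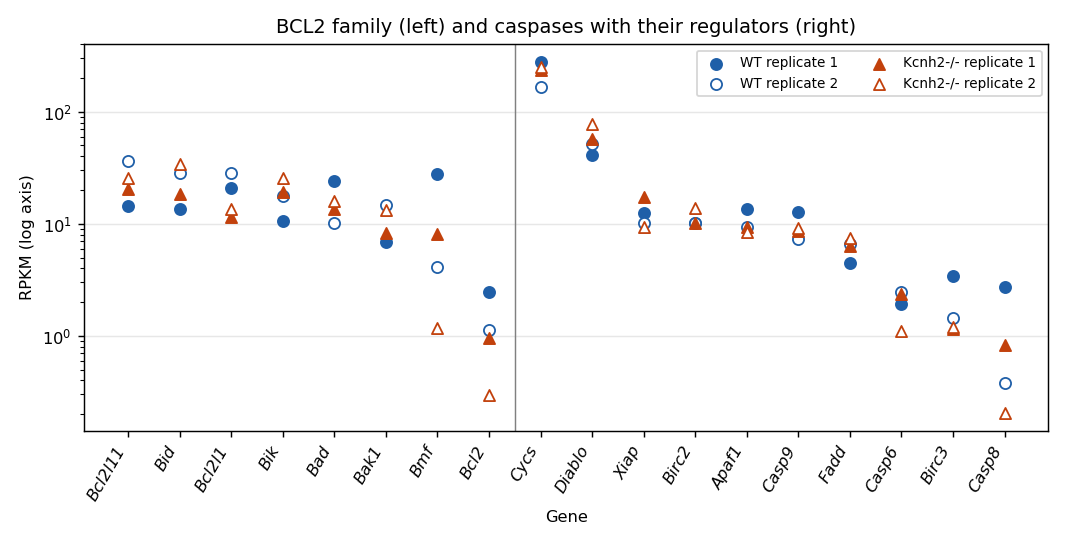
RPKM (log axis) of the 8 BCL2 family members (left of the line) and the 10 genes of the caspase group (right), each ordered by mean level, with symbols by genotype and replicate as in the key. Both triangles lie below both circles for Bcl2l1, Bcl2 and Birc3 and above them for Bik, Diablo and Birc2; the step for Birc2 in replicate 1 is too small to see.

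In the list of 24 other apoptosis genes, 22 were tested and none passed (limma; 0 at an unadjusted p under 0.05), 10 with a positive and 12 with a negative difference and a median of -0.0995. Groups did not overlap for 6 higher and 6 lower genes, beside 16.7% and 15.3% of all genes tested. Bag1, a chaperone cofactor that binds BCL2, was at 91.9 and 101.7 RPKM in WT, against 119.8 and 191 in Kcnh2-/-, and Birc5, which encodes survivin, at 89.1 and 96.8 against 115 and 135. Bcl2l12, a BCL2 family relative, was at 9.68 and 8.28 against 4.94 and 6.89, lower in Kcnh2-/- with no overlap. The same held for Bcl2l2, which encodes the guardian BCL-W, at 13.7 and 17.4 against 11.2 and 13.5. Vdac1, the outer membrane channel with the highest mean of this list, was at 227 and 245 against 281 and 324.

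Differences between replicate numbers were as large as those between genotypes for many members. Both replicate 2 libraries were above both replicate 1 libraries for 10 of the 39 members tested, against 29.5% of all genes tested, and below them for 6, against 19.8%. Cdkn1a, Plk3, Zmat3, Gdf15, Tp53inp1 and Sesn2 were the 6 p53 targets in the first set, and Btg2, Plk2 and Polk the 3 in the second. Within both replicate numbers, 13 of 22 p53 targets were higher in Kcnh2-/- and 1 was lower, against 30.8% and 28.1% of all genes tested.

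**Figure D4:**
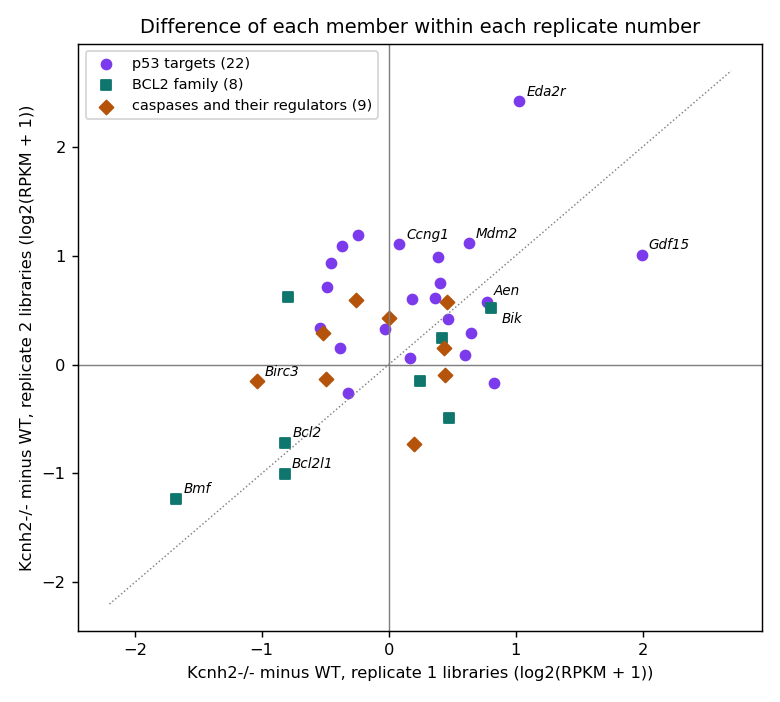
Kcnh2-/- minus WT on the log2(RPKM + 1) scale for the 39 tested members, within the replicate 1 libraries (horizontal) and the replicate 2 libraries (vertical); the dotted line marks equal differences. Mdm2, Aen, Bik, Gdf15 and Eda2r lie in the upper right, Bcl2l1, Bcl2, Birc3 and Bmf in the lower left, and 15 members have opposite signs.

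Levels of neighbouring genes were set beside the members, since whole chromosomes differed between the groups. Over protein-coding genes whose mean reached 5 RPKM, the median difference was 0.77 and 0.74 within replicates 1 and 2 for 267 X-linked genes. Chromosomes 3, 13 and 16 were at -0.31, -0.35 and -0.38 within replicate 2, against 0.0368, -0.0546 and 0.0305 within replicate 1. The members on these 4 chromosomes that were tested are Eda2r and Xiap on X, Bmf, Bcl2l11 and Bcl2l1 on 3, Btg2, Phlda3 and Bcl2 on 13, and Gdf15 on 16.

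For Eda2r, the 30 genes within 5 Mb had median differences of 0.62 and 2.14 within replicates 1 and 2, beside 1.03 and 2.42 for Eda2r. Of these neighbours, 70.0% and 63.3% lay below Eda2r, so it stood within their range. For Xiap the 13 neighbours had medians of 0.84 and 0.10, beside 0.445 and -0.0983.

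Bcl2l1 stood apart from its 61 neighbours, whose medians were near 0 in replicate 1 and -0.20 in replicate 2, beside -0.82 and -1.003; 6.56% and 1.64% of them lay lower. The 25 neighbours of Mdm2 had medians of -0.0079 and 0.0991, beside 0.63 and 1.11, and all of them in replicate 1 and 96.0% in replicate 2 lay below it. Phlda3 and Gdf15 were higher in Kcnh2-/- in regions that were lower in replicate 2: the 39 neighbours of Phlda3 were at -0.48 and the 76 of Gdf15 at -0.41, beside 0.60 and 1.01. Without genes of chromosomes 3, 13, 16, X and Y the p53 target median was 0.40 over 18 members and that of the BCL2 family was 0.19 over 4, without Bcl2l1, Bcl2, Bmf and Bcl2l11.

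**Figure D5:**
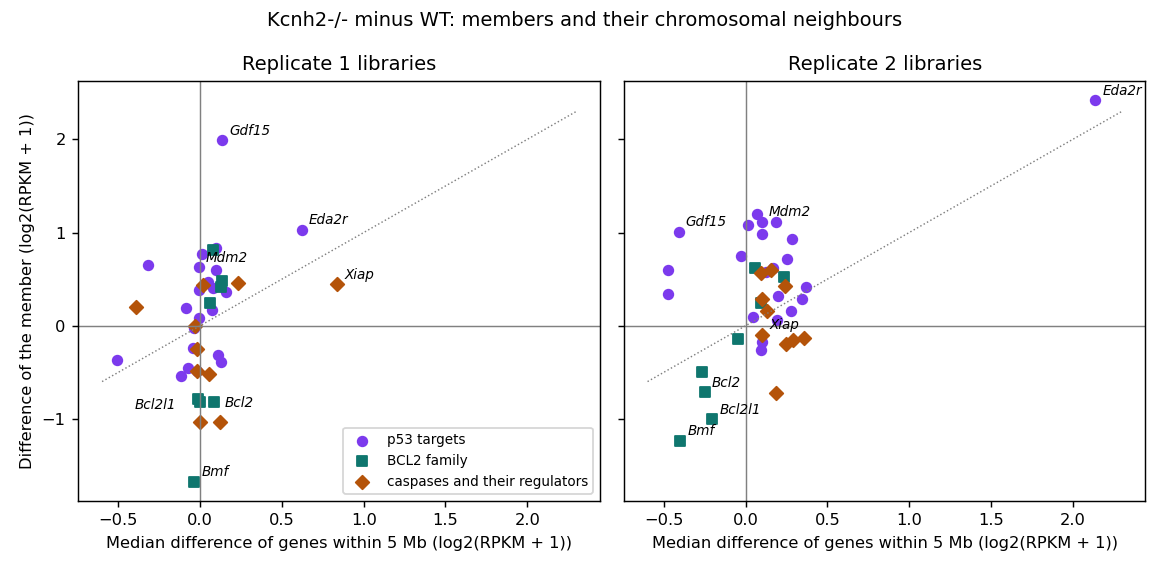
Difference of each member (vertical) against the median difference of protein-coding genes within 5 Mb (horizontal), both Kcnh2-/- minus WT on the log2(RPKM + 1) scale, for the replicate 1 (left) and replicate 2 libraries (right); the dotted line marks equality. Eda2r lies near the line in replicate 2, at 2.42 against 2.14, while Mdm2 lies above it and Bcl2l1 below it in both panels.

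Markers of cell state moved with replicate number and genotype as well. In bulk RNA, fewer cells of a type and less RNA per cell cannot be told apart. All 9 naive pluripotency markers tested were higher in both replicate 2 libraries, and their summed level was 47.8 and 366 RPKM in WT, against 158 and 586 in Kcnh2-/-. That sum was largely Dppa3, at 26.1 and 191 against 117 and 393 RPKM, and between genotypes 5 of the 9 had a positive and 4 a negative difference, all with groups that overlapped. The sum over 7 endoderm markers was 129 and 23.5 against 22.8 and 2.77, with all 5 tested markers lower in Kcnh2-/- within both numbers. The sum over 9 mesoderm and cardiac markers was 356 and 40.5 against 57.7 and 16.6. It was largely Actc1, at 310 and 23.5 against 37.3 and 5.14 RPKM, except in Kcnh2-/- replicate 2. Of 4 tested markers 3 had a negative difference, while Eomes was higher in Kcnh2-/- without overlap, at 8.70 and 9.05 against 11.5 and 9.79. Of 9 stress response genes, 7 had a positive difference, among them the member Sesn2, and 2 a negative one. Over all genes tested, 6225 of 12355 had a positive difference. Groups did not overlap for 2 of the 9, both higher in Kcnh2-/-, beside 16.7% of all genes higher in that sense. These were Psat1, at 122 and 108 against 229 and 184 RPKM, and Trib3, at 8.13 and 11.5 against 12.4 and 19.6. Ddit3, a transcription factor of endoplasmic reticulum stress, was at 12.4 and 26.4 against 21.1 and 101 RPKM, and its groups overlapped. The 9 proliferation genes had a median of 0.29, with 0.34 within replicate 1 and -0.0227 within replicate 2. Fibroblast markers summed to 12.0 and 1.23 against 4.56 and 0.379, with Col3a1 at 9.41 and 0 against 1.44 and 0.0454. Col1a1 and Dcn were higher in Kcnh2-/- within replicate 1 and lower within replicate 2. Blood and endothelial markers summed to 3.20 and 0.862 against 2.98 and 6.04, with Tie1 at 1.39 and 0.556 against 0.812 and 3.17. Of that list, the blood markers Ptprc and Hbb were each listed at 0 in 3 of 4 libraries. Gata1, an X-linked blood transcription factor of that list, was at 0.153 and 0.186 against 2.11 and 2.59 RPKM, without overlap (limma adjusted p = 0.980). The median difference of 267 X-linked genes was 0.77 and 0.74 within replicates 1 and 2, and its part in the Gata1 difference was not tested. Cdh5, an endothelial marker of the same list, was lower in Kcnh2-/- without overlap, at 1.66 and 0.111 against 0.0568 and 0.0549. Neural markers summed to 52.8 and 14.1 against 24.3 and 19.3, mostly Tubb3 at 44.6 and 11.8 against 17.9 and 16.2. The sum hides a split among scarce markers whose groups did not overlap. Map2 was higher in Kcnh2-/-, at 0.293 and 0.566 against 1.76 and 1.41 RPKM. Neurog2 was also higher, at 0 and 0 against 0.150 and 0.0819, and Pax6 was lower, at 0.488 and 0.0824 against 0.0228 and 0. Immediate early genes summed to 83.9 and 45.4 against 74.6 and 74.9. The part of these markers in the differences of the members was not tested.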

How the data were processed

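Gene expression was measured by RNA-seq of total RNA in 4 libraries, 2 of WT and 2 of Kcnh2-/-. The deposited values are RPKM per gene with a locus, with 1 table for each library; TopHat2 2.0.13, Cufflinks 2.2.1 and the rn6 build are named in the submitters' processing notes, which leave the annotation unnamed. Coordinates of genes are rn6 as the files give them, and promoter sequences are from RefSeq (GRCr8). Depth cannot be had from these values, so no counting intervals are given.

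Differences on log2(RPKM + 1), a scale that understates changes of low genes, were tested two-sided with limma 3.58.1 (eBayes, trend on; R 4.3.3) over genes reaching 1 RPKM in 2 or more libraries, with Benjamini-Hochberg adjustment over all genes tested and a threshold of 0.05. An exact permutation of 2 against 2 libraries cannot go below p = 0.333. The fit was also run on simulated data, but the outcome is not reported here. The size of change that it would miss with 2 libraries per group is therefore not given. Biotypes came from a RefSeq gene table, which matched 19341 of 32753 symbols. The members, lists and tests were chosen with earlier results of these data known. All members found are named. Statistics are given for Mdm2, Cdkn1a, Bax, Bcl2 and Casp9 and for the 10 members of smallest p. From the other pathway lists, the 3 genes of smallest p and the 2 of highest mean may be named. Bcl2l2, Pou5f1, Lin28a, Dppa3, Gata1, Ptprc and Hbb fall outside that rule and were chosen after their values were seen. The same holds for Actc1, Eomes, Cdh5, Tie1, Col3a1, Col1a1, Dcn, Tubb3, Map2, Neurog2 and Pax6. Some genes of these lists are not reported here. Alternatives covered the pseudocount, filter, scaling, variance model, threshold, replicate block, gene set, chromosomes and each library left out. Tables were built with pandas 2.3.3 and numpy 2.4.6 in Python 3.11.15, and plots with matplotlib 3.10.9.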

Additional observations from a re-analysis of the deposited data

How the results depend on the processing

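No member passed the threshold under any of 16 other settings listed at the outset or 2 chosen after seeing the data. Over the 12 members given with statistics, limma adjusted p-values ran down to 0.0755 (Eda2r), 0.119 (Gdf15) and 0.172 (Mdm2), each with the replicate block on protein-coding genes. Of 205 values of their differences, 111 came from settings that cannot change a difference; of the other 94, 91 kept their direction. The exceptions were Cdkn1a without WT replicate 1 (-0.0175) and without Kcnh2-/- replicate 2 (-0.19), and Casp9 without WT replicate 1 (0.24); with each library left out in turn Cdkn1a ran from -0.19 to 1.34 and Casp9 from -0.47 to 0.24. The count of 14 genes called over all genes was 1 with no filter, 3 without a variance trend, 3 over protein-coding genes, 6 over genes that share no locus, and 0 to 15 when 1 library was left out (0 without either WT library). It was 28 with the replicate block and 82 with the block over protein-coding genes. The labels tie the numbers to no shared source; deviations of the replicate 1 libraries from their group means had a correlation of 0.38 across 12355 genes, which are not independent replicates. The block changed no call of a member.

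With 1 library left out, the p53 target median was 0.25 to 0.66 over 21 or 22 members. That of the BCL2 family was -0.23 to 0.55 over 7 or 8 members, and that of the caspase group -0.14 to 0.22 over 9. The filter was applied anew in each of these fits, so the members were not always the same. Outside chromosomes 3, 13, 16, X and Y the BCL2 family median was 0.19, and the caspase group median was -0.0414 after quantile normalization. Counts of members whose groups did not overlap ran, with 1 library left out, from 8 to 16 higher and 0 to 5 lower p53 targets, 1 to 4 higher and 2 to 3 lower BCL2 family members, and 3 to 4 higher and 1 to 4 lower genes of the caspase group; 2 against 1 libraries overlap less often by construction, and the same settings gave 25.1% to 41.5% of all genes higher and 28% to 35.8% lower. Lower BCL2 family members numbered 1 with the filter at 5 RPKM, 1 over genes that share no locus and 0 outside those chromosomes. In the caspase group, 1 was higher over genes that share no locus and 0 were lower with the filter at 5 RPKM. These settings took members out of the counts. Bcl2 and Birc3 were below 5 RPKM in every library, and Bcl2l1 and Diablo share a locus. Bcl2l1 and Bcl2 lie on chromosomes 3 and 13. Apart from these removals and the construction, the cause of the shifts was not tested.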
